A study of Mus musculus with 6 samples.

Results

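Endoplasmic reticulum (ER) chaperones and stress genes were followed in RNA from CD8+ T cells isolated from mouse spleen, in 3 libraries from mice on CDAHFD and 3 from mice on ND. CDAHFD stands for a high-fat diet that lacks choline and supplies L-amino acids in place of protein, and it is used to bring on steatohepatitis with fibrosis of the liver. The labels give the comparison diet only as ND. All mice were labelled WT, C57BL/6 and 6 weeks old when the 7 weeks of feeding began. The labels do not say that the libraries of a diet came from separate animals, so p-values measure the spread between these libraries, which may be technical, and no sort gate or purity was given in the sources used here. The 46 members were a list of ER folding, secretion and integrated stress genes, matched by Ensembl ID to symbols among the 26181 genes of the table. All 46 passed the minimum for a test, which was an average of 10 normalised counts over all libraries. Chac1, at a mean of 5.51 in ND libraries, passed only through its CDAHFD values.

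The ER folds and modifies proteins bound for the cell surface or for secretion. When unfolded proteins build up there, 3 sensors in its membrane respond: IRE1 (gene Ern1) splices the mRNA of the transcription factor XBP1, ATF6 is cut in the Golgi to release a transcription factor, and PERK (gene Eif2ak3) phosphorylates the initiation factor eIF2, which lowers translation in general while favouring that of ATF4. In lymphocytes the pathway is best known from plasma cells, where XBP1 enlarges the secretory apparatus, and activated CD8+ T cells also use it. Members were grouped by the arm each is most often assigned to, although XBP1 and ATF6 share many targets.

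All members of the ATF6 arm and the folding enzymes of no single arm were higher in CDAHFD libraries, with log2 fold changes of 0.13 to 0.71. The genes of the 3 sensors, Atf6, Ern1 and Eif2ak3, were higher by 0.18 to 0.25 on that scale. Other folding members, Dnajc3, Txndc11, Fkbp11, Ero1lb and Ero1l, were not called, nor were 3 of 5 genes of protein entry into the ER. Of the 46 members, 30 were higher and 1 was lower in limma at an adjusted p under 0.05, and 15 missed that threshold. Among all 15819 genes tested, 24.6% rose and 22.5% fell. The median log2 fold change of the members was 0.24, against -0.01 over all genes tested. For 31 members every CDAHFD library lay above every ND library, for 0 members every CDAHFD library lay below, and for 15 the diets overlapped; over all genes tested the shares were 27.8% above, 26.5% below and 54.3% without overlap in either direction. A change of at least 2-fold on the log2(normalised count + 1) scale was called for 5 members, Asns, Chac1, Sdc1, Derl3 and Sesn2. All 5 were higher, and the share over all genes tested was 11.2% (9.43% higher). Of the 5 members, Chac1 passed the minimum for a test only through its CDAHFD values. By role, all 12 members of the ATF6 arm rose, as did 10 of 20 of the IRE1 arm, 4 of 10 of the PERK arm, the 3 folding enzymes of no single arm and Sdc1, a surface protein of plasma cells. These shares were not tested against each other.

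**Figure D1:**
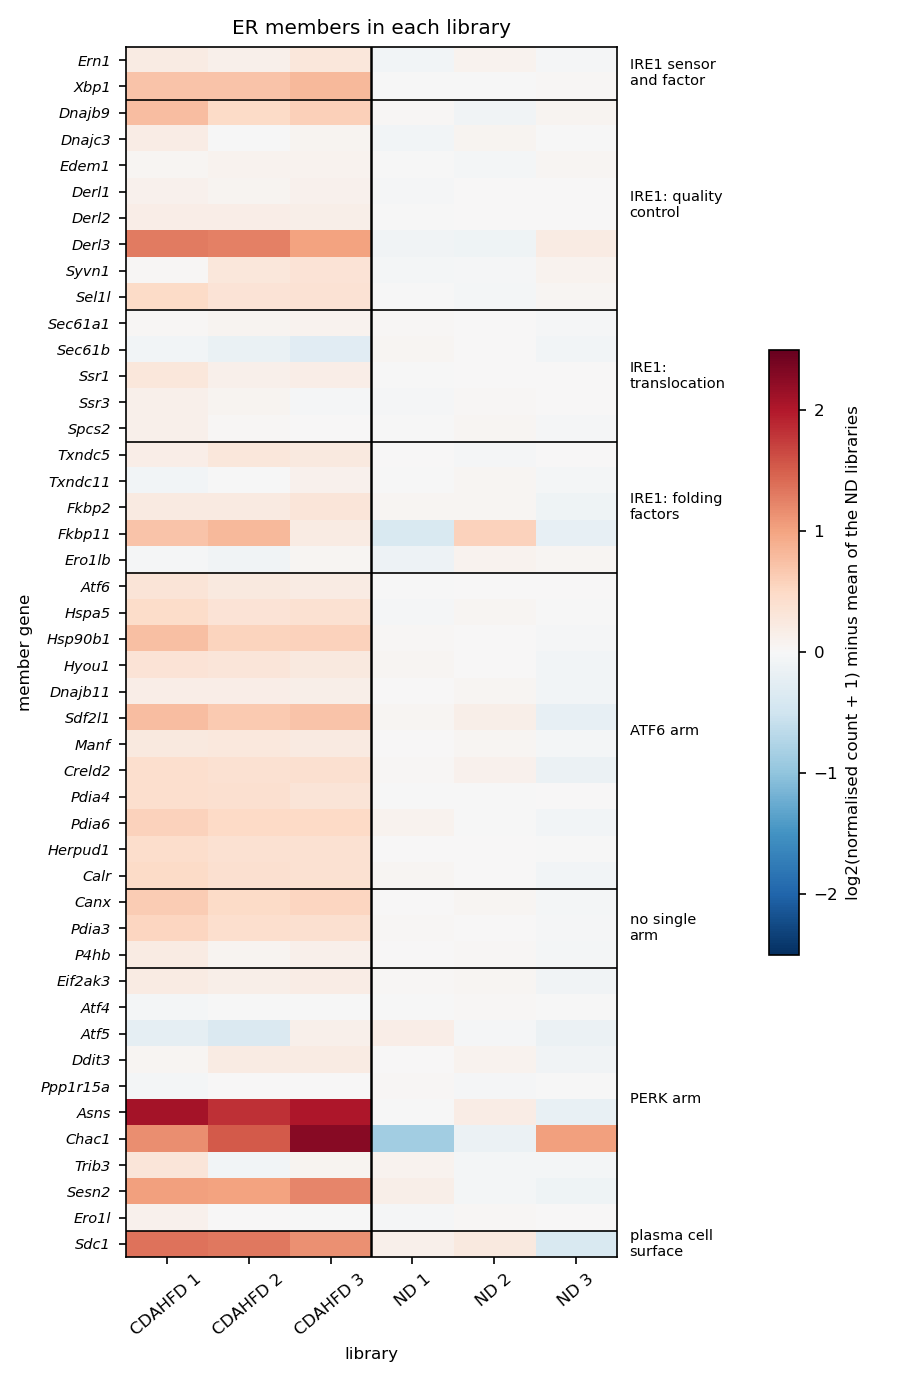
Level of each of the 46 members (rows, ordered by role group) in each library (columns), as log2(normalised count + 1) minus the mean of the 3 ND libraries. Every ATF6 arm row is above the ND mean in the 3 CDAHFD columns, though rows with small changes, such as Dnajb11 (log2 fold change 0.16), are pale. Asns, Chac1, Sesn2, Derl3 and Sdc1 are the darkest rows. The translocation block and Atf4, Atf5 and Ppp1r15a are pale too.

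The preparations held RNA of other spleen cells, and its amount differed between the diets. The 10 CD8 T cell markers were all present and summed to 113986 to 118438 normalised counts in CDAHFD libraries and 143126 to 147332 in ND libraries, with 9 of 10 lower in CDAHFD. Plasma cell markers, a list of 14 that holds no member, summed to 102808 to 108323 in CDAHFD and 42813 to 43296 in ND libraries; 8 of the 13 tested rose, 1 fell and none was at 0. Among them Igha, the IgA heavy chain, averaged 27056 ± 895 in CDAHFD and 965 ± 47.2 in ND libraries (SD, n = 3 each), whereas Mzb1, an ER protein of plasma and B cells, stood at 398 ± 19.6 in CDAHFD and 369 ± 29.9 in ND and was not called (adjusted p = 0.295). Ighm, the IgM heavy chain, averaged 30001 ± 1337 in CDAHFD and 29256 ± 373 in ND and was not called (limma adjusted p = 0.479). Ighm made up most of the ND sum of this list, so the ratio of the sums is smaller than without it. The 14 macrophage markers all rose, with sums of 146637 to 161586 in CDAHFD and 16922 to 18419 in ND libraries. Neutrophil markers summed to 6425 to 7437 in CDAHFD and 2526 to 2573 in ND libraries (6 of 8 rose), and erythroid markers to 7664 to 7978 in CDAHFD and 709 to 777 in ND (6 of 6 rose). B cell markers summed to 17641 to 18472 in CDAHFD and 22479 to 23258 in ND (7 of 8 fell, 1 rose), and plasmacytoid dendritic cell markers to 13702 to 14145 in CDAHFD and 16484 to 17705 in ND (6 of 10 fell, 2 rose). None of the markers on these lists was at 0 in either diet. Heat shock genes, read as a sign of handling, summed to 100772 to 109276 in CDAHFD and 62458 to 64940 in ND libraries, with 7 of 8 higher. Hspa8, the constitutive Hsp70, made up most of that sum, and the inducible genes differed more: Hspa1b was 9.92-fold, Hspa1a 8.46-fold and Hsph1 2.85-fold higher in CDAHFD. In bulk RNA, fewer cells of a type and less RNA per cell cannot be told apart, and the part of other cells or of handling in the ER results was not tested.

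**Figure D2:**
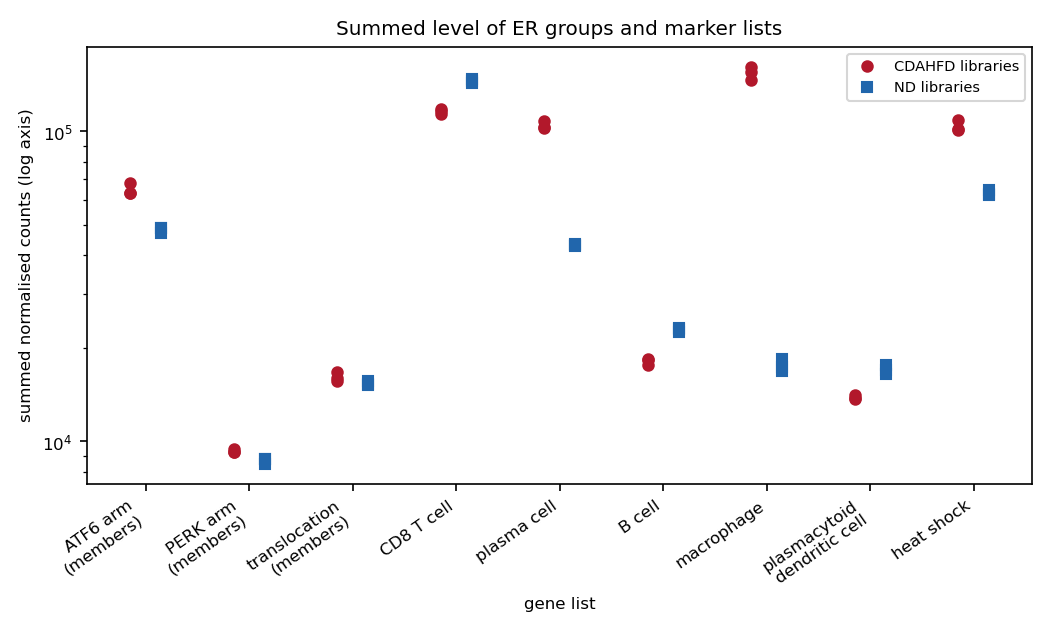
Summed normalised counts of ER groups and marker lists (log axis) in each library, CDAHFD as circles on the left and ND as squares on the right of each list. Among the lists drawn, the macrophage and plasma cell sums stand farthest apart, with ratios of means of 8.8 and 2.43. The plasma cell sums include Ighm, which was 1.03-fold in CDAHFD over ND. The ATF6 arm sums are 63195 to 68015 in CDAHFD against 46866 to 48891 in ND libraries. The sums of the translocation members lie close together.

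Promoters of the members were searched for the short DNA elements that the arms are known to use, since these are the sequences through which ATF6, XBP1 and ATF4 are known to act. RefSeq windows of 300 bases (250 before to 50 after the transcription start, GRCm38.p6, the build also called mm10) were given for 41 of the 46 members. The ER stress element ERSE (CCAAT and CCACG separated by 9 bases of any kind, both strands), which ATF6 binds beside the CCAAT factor NF-Y, was present in 10 of these 41 members and in 37 of all 27025 genes with a window (0.137%). The related ERSE-II (ATTGG and CCACG separated by 1 base of any kind, both strands) was present in 2 members and in 12 genes (0.0444%). By role, ERSE or ERSE-II was present in 7 of 9 ATF6 arm members with a window, 3 of 7 quality control members, 1 of 5 secretory folding factors, 1 of 3 folding enzymes of no single arm and 0 of 10 PERK arm members. Several of these genes are known as ERSE genes, so the members and the element are not independent. The elements are printed with 8 flanking bases on each side and the element in capitals, as read on the strand of the gene, so that an ERSE on the other strand starts with CGTGG and ends, 9 bases further on, with ATTGG.
Hspa5, chr2:34772025-34772043, gene on the + strand: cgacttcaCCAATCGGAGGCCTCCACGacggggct
Hsp90b1, chr10:86705638-86705656, gene on the - strand: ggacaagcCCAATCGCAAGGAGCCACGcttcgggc
Hsp90b1, chr10:86705533-86705551, gene on the - strand: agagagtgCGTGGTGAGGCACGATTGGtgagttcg
Creld2, chr15:88819520-88819538, gene on the + strand: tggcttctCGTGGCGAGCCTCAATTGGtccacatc
Pdia6, chr12:17266491-17266509, gene on the + strand: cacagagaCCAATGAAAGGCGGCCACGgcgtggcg
Calr, chr8:84847075-84847093, gene on the - strand: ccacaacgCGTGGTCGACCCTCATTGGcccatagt
Canx, chr11:50325800-50325818, gene on the - strand: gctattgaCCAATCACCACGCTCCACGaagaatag
Derl3, chr10:75893242-75893260, gene on the + strand: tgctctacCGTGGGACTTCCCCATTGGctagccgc
Syvn1, chr19:6046532-6046550, gene on the + strand: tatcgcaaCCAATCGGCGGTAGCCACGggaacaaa
Dnajc3, chr14:118937827-118937845, gene on the + strand: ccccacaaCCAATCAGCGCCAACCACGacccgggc
Ero1lb, chr13:12565682-12565700, gene on the + strand: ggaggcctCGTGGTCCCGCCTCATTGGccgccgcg
Herpud1, chr8:94386377-94386387, gene on the + strand: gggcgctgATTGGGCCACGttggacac
Dnajb11, chr16:22857852-22857862, gene on the + strand: cggcggcgATTGGCCCACGcctggctg
Of these 12 genes, 10 rose and 2, Dnajc3 and Ero1lb, were not called. Of all 46 members 30 rose, a count that includes members without a window. All 12 ATF6 arm members rose. They include Sdf2l1 and Pdia4, whose windows held neither element, and Atf6, Hyou1 and Manf, which had no window. Outside the members, 6 of 18 tested genes with ERSE or ERSE-II rose (33.3%) and 2 fell, with a median log2 fold change of 0.06. Of all tested non-members with a window, 26.5% rose and 25% fell. A match is a description of letters and not of binding.

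The element of ATF4 with a C/EBP partner, CARE (TGATGNAA, both strands), was present in 5 of 41 members and in 4.51% of all genes with a window. It was found in Asns, Chac1 and Trib3 of the PERK arm, and also in Herpud1 and Txndc5. The XBP1 element UPRE (TGACGTGG, both strands), whose last letters CGTGG are also the reverse complement of the end of ERSE, was present in Txndc5 and Txndc11 and in 0.714% of genes. The CARE sites of the PERK arm are shown for comparison, with the same flanks.
Asns, chr6:7693225-7693232, gene on the - strand: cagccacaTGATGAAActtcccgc
Chac1, chr2:119351049-119351056, gene on the + strand: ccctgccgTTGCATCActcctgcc
Trib3, chr2:152344039-152344046, gene on the - strand: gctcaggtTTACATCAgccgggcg
Asns and Chac1 rose and Trib3 was not called. Whole stretches of 250 bases upstream of the start are given for Hspa5, Hsp90b1 and Asns, as the chief chaperones of the ATF6 arm and the member with the largest rise, with the elements named above in capitals.
Hspa5, chr2:34771840-34772089, + strand: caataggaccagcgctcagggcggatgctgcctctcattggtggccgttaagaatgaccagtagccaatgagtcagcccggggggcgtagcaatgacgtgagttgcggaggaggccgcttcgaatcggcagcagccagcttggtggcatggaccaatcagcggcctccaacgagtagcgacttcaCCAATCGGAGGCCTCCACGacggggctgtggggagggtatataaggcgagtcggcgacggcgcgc
Hsp90b1, chr10:86705445-86705694, - strand: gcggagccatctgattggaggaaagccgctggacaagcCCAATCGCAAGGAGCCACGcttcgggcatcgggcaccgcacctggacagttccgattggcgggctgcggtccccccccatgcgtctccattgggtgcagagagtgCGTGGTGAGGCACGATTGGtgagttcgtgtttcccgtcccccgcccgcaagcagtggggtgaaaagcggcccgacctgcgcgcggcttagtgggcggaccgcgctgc
Asns, chr6:7693210-7693459, - strand: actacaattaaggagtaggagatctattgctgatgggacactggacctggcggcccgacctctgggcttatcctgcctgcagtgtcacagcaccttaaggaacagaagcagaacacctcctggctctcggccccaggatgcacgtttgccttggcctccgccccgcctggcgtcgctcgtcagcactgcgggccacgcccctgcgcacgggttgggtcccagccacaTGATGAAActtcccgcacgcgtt

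**Figure D3:**
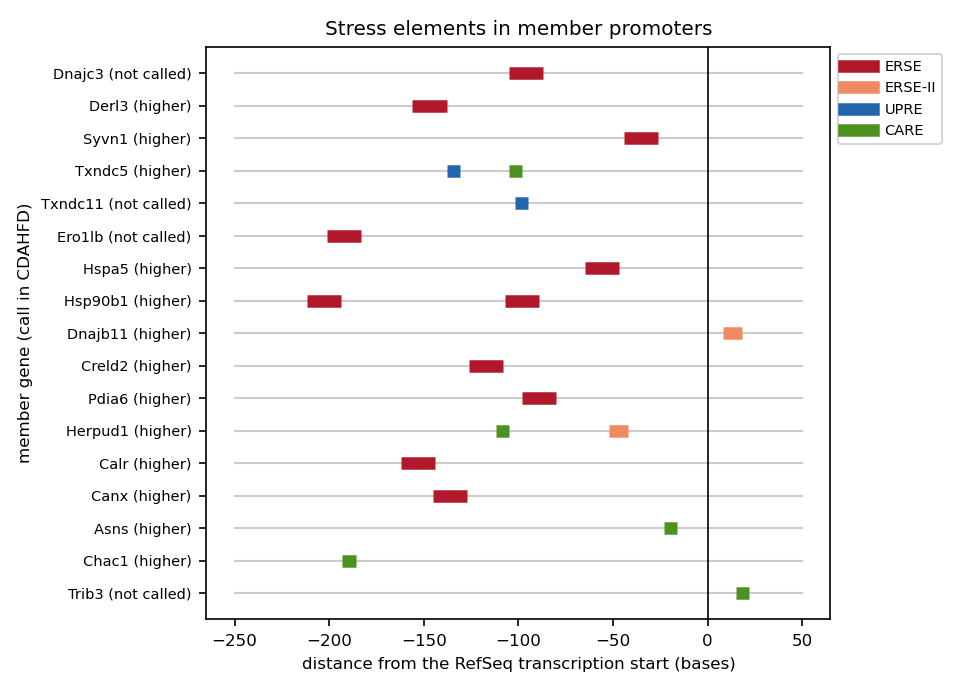
Position of each stress element (coloured bars) in the promoter windows of the 17 members that hold one, as distance in bases from the RefSeq transcription start, with the call of the gene in brackets. ERSE and ERSE-II bars lie between -212 and 18, and 10 of the 12 genes that hold one were called higher. Of all 46 members, 5 of which had no window, 30 were called higher.

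The ATF6 arm rose as a whole. Its 12 members, which are ATF6 itself and the chaperones and enzymes it is known to induce, had log2 fold changes of 0.16 to 0.71 with a median of 0.40, and none of them overlapped between the diets. Summed, they reached 68015, 63266 and 63195 normalised counts in CDAHFD libraries and 48660, 48891 and 46866 in ND libraries, a ratio of means of 1.35. None reached 2-fold. The 12 calls held in each fit that left out 1 library. In the same libraries summed plasma cell markers were 2.43-fold, macrophage markers 8.8-fold and heat shock genes 1.64-fold higher in CDAHFD. The plasma cell sums include Ighm, which was 1.03-fold in CDAHFD over ND and lowers that ratio. Single heat shock genes were up to 9.92-fold higher (Hspa1b). The part of plasma cells, macrophages and handling in the rise of the ATF6 arm was not tested.

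Hspa5, which encodes the ER Hsp70 chaperone BiP and holds ERSE in the window shown above, had 15298, 14043 and 14398 normalised counts in CDAHFD libraries and 10799, 11410 and 11075 in ND libraries. The diets did not overlap, and the log2 fold change was 0.39 (SE 0.04, limma adjusted p = 2.67e-09). Hsp90b1, the ER Hsp90, had 13324, 11624 and 11697 in CDAHFD and 8061, 7929 and 7698 in ND libraries. Replicate 1 was the highest CDAHFD library, but the lowest was still far above ND, with a log2 fold change of 0.63 (SE 0.05, adjusted p = 1.00e-11). Exons of Hsp90b1 overlap 3 other annotated genes over 632 bases. Calr, the lectin chaperone calreticulin, had 15967, 14957 and 14793 in CDAHFD and 11728, 11524 and 10932 in ND libraries, again without overlap (log2 fold change 0.42, SE 0.04, adjusted p = 9.31e-10). These are among the most abundant members: per kilobase of exon, Calr averaged 5291 normalised counts in CDAHFD and 3956 in ND libraries, Pdia3 3586 in CDAHFD and 2617 in ND, Hspa5 3448 in CDAHFD and 2623 in ND, and Hsp90b1 3030 in CDAHFD and 1958 in ND.

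The largest rise in the arm was that of Sdf2l1, a partner of BiP and its J-domain cochaperones, with 1077, 990 and 1044 normalised counts in CDAHFD and 654, 704 and 550 in ND libraries (log2 fold change 0.71, SE 0.07, adjusted p = 1.33e-08). Its lowest CDAHFD library stood well above its highest ND library. Pdia6, a protein disulfide isomerase, had 4175, 3936 and 3955 in CDAHFD and 2966, 2798 and 2656 in ND libraries (log2 fold change 0.52, SE 0.05). Herpud1, a membrane protein of ER-associated degradation whose promoter holds ERSE-II, had 3077, 2922 and 2956 in CDAHFD and 2274, 2267 and 2225 in ND libraries (log2 fold change 0.40, SE 0.04). The libraries of each diet lay close together for both, and the diets were apart. Creld2, a stress-induced ER protein with a nearby value, had 942, 925 and 936 in CDAHFD and 723, 762 and 641 in ND libraries (log2 fold change 0.40, SE 0.07).

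The other ATF6 arm members rose by less. The disulfide isomerase Pdia4 averaged 4115 ± 163 normalised counts in CDAHFD and 3166 ± 29.6 in ND libraries (SD, n = 3 each). Hyou1, the large ER chaperone that recharges BiP with nucleotide, averaged 4084 ± 121 in CDAHFD and 3320 ± 135 in ND. Manf, a stress-induced protein of the ER, ranged from 1776 to 1806 in CDAHFD and from 1453 to 1563 in ND. Dnajb11, a J-domain cochaperone of BiP, averaged 2398 ± 28.5 in CDAHFD and 2151 ± 82.5 in ND. All had diets that did not overlap and log2 fold changes between 0.16 and 0.38. The sensor Atf6 had 1491, 1409 and 1380 in CDAHFD and 1185, 1199 and 1205 in ND libraries (log2 fold change 0.25, SE 0.05, adjusted p = 1.78e-04); cleavage of the ATF6 protein is not visible in RNA counts.

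The 3 folding enzymes that belong to no single arm rose as well. Canx, the membrane-bound lectin chaperone calnexin, had 10209, 9169 and 9484 normalised counts in CDAHFD and 6627, 6758 and 6314 in ND libraries (log2 fold change 0.55, SE 0.04, adjusted p = 9.95e-12). Pdia3, the disulfide isomerase that works with calnexin and calreticulin and in loading of MHC class I, had 11934, 10965 and 10870 in CDAHFD and 8332, 8270 and 8039 in ND libraries (log2 fold change 0.45, SE 0.04). Neither overlapped between diets. P4hb, the founding protein disulfide isomerase, rose least, with 6730, 6115 and 6312 in CDAHFD and 5882, 5949 and 5614 in ND libraries (log2 fold change 0.13, SE 0.04, adjusted p = 0.00975). Its call was lost without ND replicate 3 (adjusted p = 0.0716) and in limma without trend and robust estimation (adjusted p = 0.11).

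**Figure D4:**
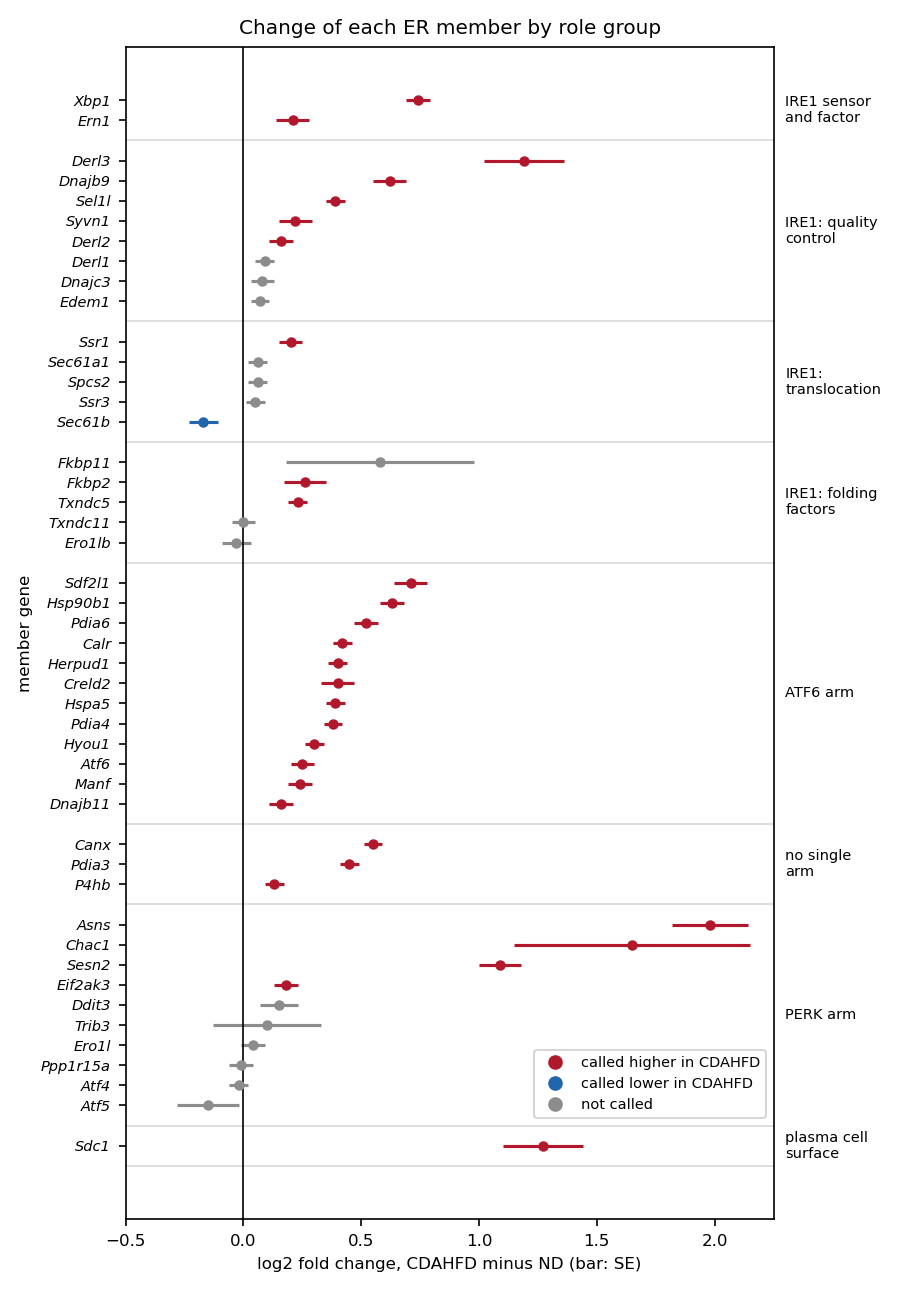
Log2 fold change (CDAHFD minus ND) of each member with its standard error as a bar, by role group and sorted within it; red points were called higher, blue lower and grey not called in limma. All 12 ATF6 arm points are red and lie between 0.16 and 0.71. Of the 5 translocation points, the 3 not called lie at 0.05 to 0.06 and Ssr1 is red at 0.20. Sec61b, at -0.17, is the single blue point.

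In the IRE1 arm both the factor Xbp1 and the sensor Ern1 rose. Xbp1 had 2082, 2088 and 2227 normalised counts in CDAHFD and 1257, 1268 and 1291 in ND libraries (log2 fold change 0.74, SE 0.05, adjusted p = 2.25e-13). The libraries of each diet lay close together and the diets far apart. The table counts reads per gene, so spliced and unspliced Xbp1 mRNA, which tell whether IRE1 is active, cannot be told apart. Ern1 had 779, 742 and 823 in CDAHFD and 648, 718 and 667 in ND libraries, with the lowest CDAHFD library just above the highest ND library (log2 fold change 0.21, SE 0.07, adjusted p = 0.0116). Its call was lost without CDAHFD replicate 3 (adjusted p = 0.0736), without ND replicate 1 (adjusted p = 0.0625) and in limma without trend and robust estimation (adjusted p = 0.0531). The plasma cell factor Prdm1, which acts upstream of Xbp1 in those cells, averaged 531 ± 19.9 in CDAHFD and 118 ± 15.5 in ND libraries. The other factors on the plasma cell list did not follow it: Irf4 was lower, at 793 ± 11.4 in CDAHFD and 904 ± 5.57 in ND (limma adjusted p = 0.00893), and Pou2af1 (1.01-fold) and Eaf2 (1.36-fold) were not called. Which cells the transcripts of these factors came from was not tested.

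Genes of ER quality control and degradation rose in part: 5 of 8 were called higher, none lower and 3 not called. Their median log2 fold change was 0.19. Of all genes tested, 24.6% were called higher and 22.5% lower. Derl3, a derlin of the channel that returns misfolded proteins to the cytosol and one that plasma cells express strongly, had 119, 116 and 96.8 normalised counts in CDAHFD and 44.8, 43.9 and 54.7 in ND libraries (log2 fold change 1.19, SE 0.17, adjusted p = 1.69e-06). It was a low gene, resting on 335 reads in CDAHFD and 144 reads in ND libraries, yet the diets did not overlap. Dnajb9, a J-domain cochaperone of BiP that also holds IRE1 in check, had 1186, 964 and 1045 in CDAHFD and 701, 649 and 722 in ND libraries (log2 fold change 0.62, SE 0.07). The CDAHFD libraries of Dnajb9 differed among themselves but lay above all ND libraries.

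The ubiquitin ligase of this pathway and its adaptor both rose. Sel1l, the adaptor, had 4044, 3677 and 3769 normalised counts in CDAHFD and 2894, 2834 and 3018 in ND libraries (log2 fold change 0.39, SE 0.04, adjusted p = 2.15e-08). Syvn1, the ligase HRD1, had 1945, 2324 and 2427 in CDAHFD and 1841, 1862 and 2028 in ND libraries, so that CDAHFD replicate 1 fell among the ND values (log2 fold change 0.22, SE 0.07, adjusted p = 0.0206). The Syvn1 call was lost without CDAHFD replicate 2 (adjusted p = 0.0689), CDAHFD replicate 3 (adjusted p = 0.0661), ND replicate 1 (adjusted p = 0.0814) or ND replicate 2 (adjusted p = 0.0778), with equal library totals (adjusted p = 0.0745) and in limma without trend and robust estimation (adjusted p = 0.136). Derl2, another derlin, had 1514, 1517 and 1498 in CDAHFD and 1332, 1350 and 1363 in ND libraries (log2 fold change 0.16, SE 0.05, adjusted p = 0.00715). Not called were Derl1 (3446 ± 62.5 in CDAHFD and 3234 ± 53.4 in ND), Edem1, a lectin that sorts misfolded glycoproteins for degradation (7984 ± 156 in CDAHFD and 7584 ± 256 in ND), and Dnajc3, a cochaperone that also inhibits eIF2 kinases (6042 ± 430 in CDAHFD and 5694 ± 270 in ND).

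Of the 5 genes of protein entry into the ER, 1 was higher, 1 lower and 3 not called, with a median log2 fold change of 0.06. The shares over all genes tested were 24.6% higher and 22.5% lower. Ssr1, a subunit of the translocon-associated protein complex, had 3428, 3071 and 3157 normalised counts in CDAHFD and 2781, 2812 and 2822 in ND libraries (log2 fold change 0.20, SE 0.05, adjusted p = 6.45e-04). Sec61b, a small subunit of the translocation channel, had 1313, 1218 and 1132 in CDAHFD and 1423, 1393 and 1310 in ND libraries (log2 fold change -0.17, SE 0.06, adjusted p = 0.0139). The diets overlapped for Sec61b, and its call was lost without CDAHFD replicate 3 (adjusted p = 0.123), ND replicate 1 (adjusted p = 0.0794) or ND replicate 2 (adjusted p = 0.0542) and in limma without trend and robust estimation (adjusted p = 0.111). Sec61a1, the channel itself, averaged 4165 ± 70.8 in CDAHFD and 3992 ± 82.6 in ND libraries, Ssr3, another subunit of the translocon-associated complex, 4310 ± 233 in CDAHFD and 4152 ± 90.5 in ND, and Spcs2, a signal peptidase subunit, 3234 ± 146 in CDAHFD and 3101 ± 84.9 in ND. Exons of Sec61a1 overlap a gene on the other strand over 549 bases, and Spcs2 has an annotated pseudogene copy in the table, so reads of both are uncertain. The same limit holds for members called higher whose exons overlap another gene, among them Txndc5 (535 bases), Eif2ak3 (485), Manf (326) and Derl2 (231).

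Among factors that secretory cells use for folding, 2 of 5 rose and 3 did not pass the test. Beside them stand 24.6% higher and 22.5% lower over all genes tested. Txndc5, a thioredoxin-domain disulfide isomerase, had 2881, 3159 and 3057 normalised counts in CDAHFD and 2596, 2533 and 2611 in ND libraries (log2 fold change 0.23, SE 0.04, adjusted p = 8.08e-05). Fkbp2, a prolyl isomerase of the ER, had 349, 349 and 367 in CDAHFD and 308, 308 and 276 in ND libraries (log2 fold change 0.26, SE 0.09, adjusted p = 0.0191), and its call was lost without CDAHFD replicate 3 (adjusted p = 0.0714) or ND replicate 3 (adjusted p = 0.0944). Neither overlapped between diets. Fkbp11, a prolyl isomerase known from plasma cells, was near the limit of the test at 15.5 ± 3.41 in CDAHFD and 10.4 ± 4.32 in ND libraries. Its difference was not detectable at that depth (adjusted p = 0.249). Txndc11, a thioredoxin-domain protein of the ER, averaged 1703 ± 105 in CDAHFD and 1696 ± 60.7 in ND, and the oxidase Ero1lb 1425 ± 63.7 in CDAHFD and 1454 ± 117 in ND.

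Sdc1, the proteoglycan syndecan-1 by which plasma cells are recognised, had 150, 146 and 129 normalised counts in CDAHFD and 63.6, 69.4 and 44.3 in ND libraries (log2 fold change 1.27, SE 0.17, adjusted p = 4.27e-07). All CDAHFD libraries stood clear of all ND libraries. Beside it and Derl3, Igha was 28.0-fold and Jchain, the joining chain of secreted IgA and IgM, 6.96-fold higher in CDAHFD libraries, and the part of plasma cells in the rises of Sdc1, Derl3 and Xbp1 was not tested. Tnfrsf17, the plasma cell receptor BCMA, was under the minimum for a test at 12.0 ± 3.18 in CDAHFD and 4.94 ± 2.48 in ND libraries.

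The PERK arm was split. Its sensor and the assigned genes Asns, Chac1 and Sesn2 rose, while its transcription factors Atf4, Atf5 and Ddit3 were not called. Of 10 members 4 rose, none fell and 6 were not called, with a median log2 fold change of 0.13. Over all genes tested, 24.6% were called higher and 22.5% lower. Whether the rises of Asns, Chac1 and Sesn2 came through PERK was not tested. Eif2ak3, the kinase PERK, had 1546, 1475 and 1531 normalised counts in CDAHFD and 1367, 1391 and 1262 in ND libraries (log2 fold change 0.18, SE 0.05, adjusted p = 0.00542), a call lost without ND replicate 3 (adjusted p = 0.0515). Atf4 had 3238, 3331 and 3322 in CDAHFD and 3327, 3418 and 3306 in ND libraries, with overlapping diets (log2 fold change -0.02, SE 0.04, adjusted p = 0.681). ATF4 is regulated mainly through translation, which RNA counts do not show. Ddit3, the death-promoting factor CHOP, had 393, 438 and 434 in CDAHFD and 379, 402 and 355 in ND libraries, also overlapping (log2 fold change 0.15, SE 0.08, adjusted p = 0.135); the annotation holds a second, overlapping gene of that name.

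The largest rise of any member was that of Asns, which makes asparagine and whose promoter holds the CARE site printed above. It had 190, 159 and 181 normalised counts in CDAHFD and 43.8, 50 and 38.7 in ND libraries, 4.01-fold higher in CDAHFD (log2 fold change 1.98, SE 0.16, adjusted p = 2.47e-11). Sesn2, a stress-induced brake on mTORC1, had 608, 604 and 704 in CDAHFD and 332, 290 and 279 in ND libraries (log2 fold change 1.09, SE 0.09, adjusted p = 1.41e-11). For both genes every CDAHFD library stood far above every ND library. Chac1, which breaks down glutathione, was low, with 11.6, 15.2 and 26.1 in CDAHFD and 2.08, 4.08 and 10.4 in ND libraries (log2 fold change 1.65, SE 0.50, adjusted p = 0.00757). It rested on 54 reads in CDAHFD and 17 reads in ND libraries, and the diets nearly touched. Its ND mean of 5.51 was under the minimum for a test, which Chac1 passed only through its CDAHFD values. The call was lost without ND replicate 1 (adjusted p = 0.0511) and in limma without trend and robust estimation (adjusted p = 0.0625). Without CDAHFD replicate 3, or with a minimum mean of 50, Chac1 was too low to be tested.

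The rest of the PERK arm did not pass the test. Trib3, a pseudokinase induced by ATF4 and CHOP, ranged from 33.1 to 43.3 normalised counts in CDAHFD and from 33.7 to 37.5 in ND libraries. Ppp1r15a, the phosphatase subunit that reverses eIF2 phosphorylation, averaged 1891 ± 38.6 in CDAHFD and 1905 ± 44.5 in ND. Atf5, a factor translated under stress like ATF4, averaged 179 ± 31.9 in CDAHFD and 198 ± 21.9 in ND, and the oxidase Ero1l, a CHOP target, 1138 ± 49.8 in CDAHFD and 1109 ± 19.1 in ND. All of these overlapped between the diets.

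Other ATF4 targets and eIF2 regulators, a list of 27 chosen by role with no member among them, moved in both directions. Among the 24 tested, 9 were called higher, 10 lower and 5 not called, and the median log2 fold change was 0.02. Over all genes tested, 24.6% were called higher and 22.5% lower. The largest change was that of Gdf15, a secreted stress cytokine, at 54.8 ± 6.46 normalised counts in CDAHFD and 5.43 ± 3.22 in ND libraries (log2 fold change 3.27, SE 0.38). Gdf15 passed the minimum for a test only through its CDAHFD values and had 16 reads in ND libraries. Slc7a11, the cystine importer, averaged 106 ± 19.3 in CDAHFD and 13.4 ± 1.81 in ND (log2 fold change 2.89, SE 0.24), and Cebpb, a C/EBP factor abundant in myeloid cells, 798 ± 61.7 in CDAHFD and 298 ± 14.1 in ND (log2 fold change 1.42, SE 0.08). The enzymes of serine synthesis and mitochondrial folate use on this list were picked out after their values were seen, and 4 of 5 were lower. Psat1 averaged 852 ± 24.2 in CDAHFD and 1166 ± 23.1 in ND, Phgdh 2049 ± 71.4 in CDAHFD and 2381 ± 47.1 in ND, Psph 521 ± 36.2 in CDAHFD and 671 ± 68.4 in ND, and Mthfd2 836 ± 14.3 in CDAHFD and 986 ± 9.7 in ND. The fifth, Shmt2, was not called, at 2904 ± 9.1 in CDAHFD and 3109 ± 84.7 in ND (log2 fold change -0.10, limma adjusted p = 0.0557). The macrophage marker Csf1r averaged 27030 ± 869 in CDAHFD and 3327 ± 152 in ND libraries, and the part of macrophages in the rises of Asns, Sesn2, Gdf15, Slc7a11 and Cebpb was not tested.

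**Figure D5:**
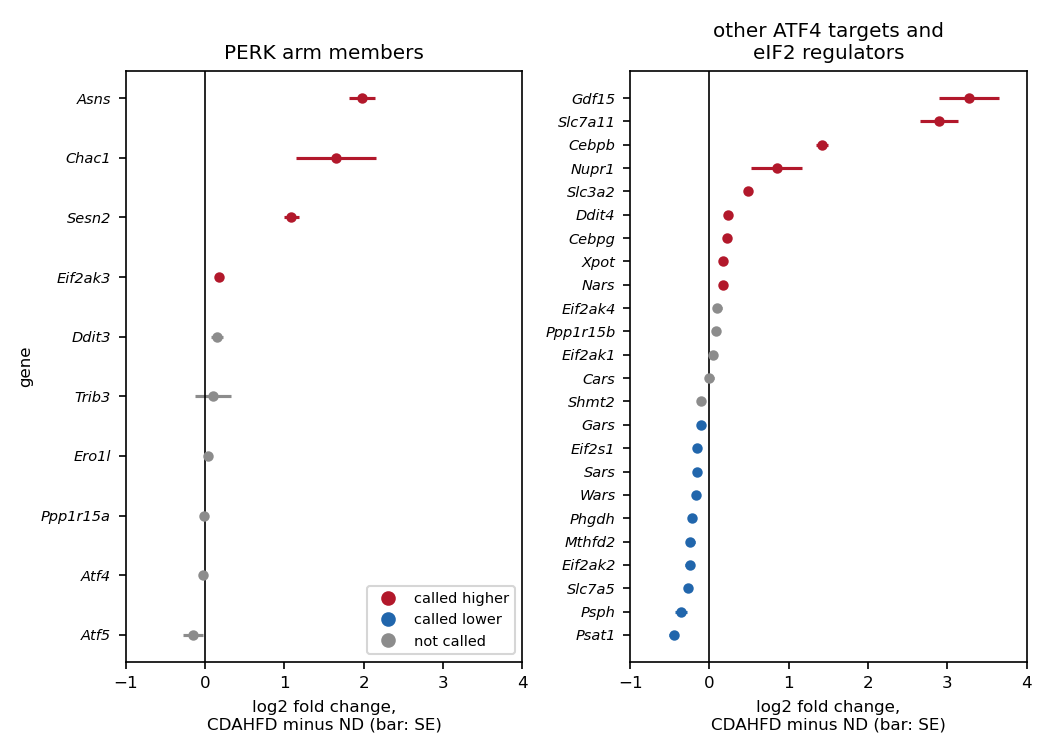
Log2 fold change (CDAHFD minus ND, bars are SE) of the 10 PERK arm members (left) and of the 24 tested other ATF4 targets and eIF2 regulators (right), red called higher, blue called lower and grey not called. Asns, Chac1 and Sesn2 stand apart from Atf4, Atf5 and Ppp1r15a near 0, and the right panel runs from Gdf15 at 3.27 down to Psat1 at -0.45. Chac1 and Gdf15 passed the minimum for a test only through their CDAHFD values.

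Further ER genes outside the members were read from lists chosen by role, to see how far the pattern reached. Among the 113 tested, 38 were called higher, 29 lower and 46 not called, and the median log2 fold change was 0.02. Over all 15819 genes tested, 24.6% were called higher and 22.5% lower, and the counts of each list below stand beside those shares. No list was tested against them. The other parts of the entry machinery (translocon, signal peptidase and signal recognition particle) had more genes lower than higher: 2 of 19 rose, 9 fell and 8 were not called, with a median of -0.13. Sec11c, a catalytic signal peptidase subunit, averaged 2326 ± 160 normalised counts in CDAHFD and 3045 ± 157 in ND libraries (log2 fold change -0.39, SE 0.05). The signal recognition particle genes Srp19 (log2 fold change -0.25, SE 0.06) and Srp9 (-0.24, SE 0.05) fell too.

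Genes of glycan transfer, the calnexin cycle and ER exit included 7 of 18 that rose, 3 that fell and 8 not called. The largest rises were those of Mcfd2 and Lman1, which together form the cargo receptor that carries glycoproteins to the Golgi: Mcfd2 averaged 1421 ± 41.5 normalised counts in CDAHFD and 813 ± 19.3 in ND libraries (log2 fold change 0.80, SE 0.05), and Lman1 1438 ± 43.4 in CDAHFD and 1023 ± 30.9 in ND (log2 fold change 0.49, SE 0.05). Rpn2, an oligosaccharyltransferase subunit, averaged 5547 ± 29.8 in CDAHFD and 4525 ± 110 in ND. Of 19 other degradation genes 7 rose, 1 fell and 11 were not called, led by Ubxn4 (log2 fold change 0.46, SE 0.04), the ubiquitin-conjugating enzyme Ube2g2 (0.40, SE 0.05) and the membrane ligase March6 (0.25, SE 0.04). The 1 that fell, Ufd1, named after its value was seen, had an adjusted p of 0.037 (log2 fold change -0.12).

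Other disulfide and proline enzymes numbered 21, of which 20 were tested, 8 rose, 4 fell and 8 were not called. Fkbp9, a prolyl isomerase, averaged 166 ± 23.2 normalised counts in CDAHFD and 12.0 ± 2.28 in ND libraries (log2 fold change 3.69, SE 0.22). P4ha1, a collagen prolyl hydroxylase subunit that works with P4hb, averaged 2534 ± 227 in CDAHFD and 1288 ± 43.0 in ND (log2 fold change 0.97, SE 0.06). Qsox1, a sulfhydryl oxidase, averaged 885 ± 37.9 in CDAHFD and 1224 ± 60.4 in ND (log2 fold change -0.47, SE 0.06). Among other sensors and membrane-bound factors, 5 of 13 tested rose, 2 fell and 6 were not called. Their 3 largest changes were of low genes. Creb3l1, a relative of ATF6, averaged 44.8 ± 4.55 in CDAHFD and 20.2 ± 6.51 in ND, and its relative Creb3l4 18.2 ± 2.39 in CDAHFD and 9.03 ± 2.21 in ND. Bloc1s1, whose mRNA IRE1 is known to cut, averaged 17.8 ± 2.02 in CDAHFD and 8.97 ± 2.52 in ND (54 and 27 reads). Creb3l4 and Bloc1s1 passed the minimum for a test only through their CDAHFD values. Exon overlap was checked for members only. The rest of the 5 that rose, named after their values were seen, had higher levels. Creb3l2 averaged 763 ± 49.9 in CDAHFD and 434 ± 7.94 in ND (log2 fold change 0.81, SE 0.07). Map3k5 averaged 2067 ± 58.5 in CDAHFD and 1328 ± 74.5 in ND (log2 fold change 0.64, SE 0.05).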

How the data were processed

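RNA of splenic CD8+ T cells was extracted with TRIzol, per the labels' protocols, and libraries were made with a whole-RNA or an mRNA kit; the labels do not say which one served which library. The build was mm10, per the submitters' processing notes. The sources used here name no aligner, counter, annotation or strand setting.

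The deposited table holds signal values, which are normalised counts per gene. In each column 100% of values were whole multiples, within 0.001, of that library's step, which gave back reads totalling 25314988 to 28067393 per library. Columns spelled CDHFD were taken as the CDAHFD samples, the one group besides ND.

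Symbols were found for 26147 of 26181 gene IDs. The test was limma 3.58.1 (R 4.3.3, trend and robust) on log2(normalised count + 1) for genes averaging at least 10, with Benjamini-Hochberg adjustment over 15819 genes, and a call at an adjusted p under 0.05. That scale understates the changes of low genes. The procedure was also run on simulated data in which far fewer genes changed than were called here, so that run is not used as support for the calls. Alternatives were other pseudocounts, filters and scalings, plain or sample-weighted limma, edgeR 4.0.16 and DESeq2 1.42.0 on the recovered reads, a replicate block, an added 2-fold threshold and each library left out.

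Members and lists were chosen with earlier results of these data known. Values in every library are given for Ern1, Xbp1, Atf6, Eif2ak3, Atf4, Ddit3 and Hspa5 and, per role group, for up to 5 called members with the largest change (Creld2 and Herpud1, level at the fifth place, both included); the others have means or ranges. Up to 3 called genes are named from each other ER list, besides those said to be named or picked out after their values were seen. Exons of 15 members overlap another annotated gene by 12 to 632 bases (GENCODE M21), and with the strand setting unknown such reads cannot be assigned. Levels per kilobase used merged exon length. Protein sequences were not used here.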

Additional observations from a re-analysis of the deposited data

How the results depend on the processing

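Counts of members higher in CDAHFD were 26 to 31 over all other scalings, filters, pseudocounts, tools and left-out libraries, against 30 as reported. An added 2-fold threshold left 5 members higher and 0 lower, 1 quality control gene, 0 genes in the IRE1 sensor, translocation, secretory folding, ATF6 and no-single-arm groups, 5 other ER genes higher and 0 lower, 2 marker genes lower, and 1771 of all genes. Limma without trend and robust estimation gave 0 members lower, 1 IRE1 sensor or factor higher, 0 translocation genes lower and 19 other ER genes lower. With each library left out in turn, members lower ranged from 0 to 1, IRE1 sensor and factor genes higher from 1 to 2, translocation genes lower from 0 to 1, secretory folding genes higher from 1 to 2, and all genes called from 6608 to 7509.

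Apart from the 2-fold threshold, 7 members had an adjusted p of 0.05 or more under some alternative, as given beside each; Chac1 was also untested without CDAHFD replicate 3, and Chac1, Fkbp11 and Trib3 with a minimum mean of 50. A further 3 gained a call: Dnajc3 without CDAHFD replicate 2 (limma adjusted p = 0.0391), Edem1 without CDAHFD replicate 1 (0.0478) and Derl1 with TMM scaling (0.0344). The sign changed for 4 uncalled members whose log2 fold changes lie near 0. Txndc11 was -0.02 with equal library totals and -0.04 to 0.04 over left-out libraries, Ero1lb -0.09 to 0.01, Ppp1r15a 0.00 with TMM scaling and -0.02 to 0.01 over left-out libraries, and Trib3 -0.00 to 0.19. The cause was not tested.

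The same-numbered libraries of the diets did not deviate together (correlations of 0.041, -0.051 and 0.062), so the numbers were not taken as a pairing. With a replicate block, 30 members were higher and 1 lower, and all 31 calls were as reported. Depth limits Chac1 and Fkbp11 most.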

Other observations

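ERSE or ERSE-II also stood in the promoter windows of genes outside the members. Of 37 such genes, 18 were tested, 6 were higher in CDAHFD libraries, 2 were lower and 10 were not called in limma, with a median log2 fold change of 0.06. Among all 10562 tested genes with a window, 26.7% were higher and 24.9% lower. The genes called, named after their values were seen, included Nucb1, a calcium-binding protein of the Golgi, at 3190 normalised counts in CDAHFD and 2529 in ND libraries (log2 fold change 0.34, SE 0.05), and Adcy3, an adenylyl cyclase, at 2141 in CDAHFD and 1247 in ND (log2 fold change 0.78, SE 0.05). Spats2l averaged 18.6 in CDAHFD and 48.7 in ND (log2 fold change -1.33, SE 0.29).

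The ATF4 element CARE was present in 304 tested genes that are not members. Of these 95 were higher and 74 lower in CDAHFD libraries (31.2% and 24.3%). The XBP1 element UPRE was present in 98 tested genes that are not members, of which 24 were higher and 17 lower.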
